A study of Mus musculus with 12 samples.

Results

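The genes described here are 8 genes of the MHC class II antigen presentation pathway in mouse kidney, H2-Aa, H2-Ab1, H2-Eb1, H2-DMa, H2-DMb1, Cd74, Ciita and Ctss. They were chosen by name, by no threshold on their values but with earlier results of these data known, from 24532 gene identifiers, and all 8 were among the 14488 genes that reached 1 TPM (transcript abundance per length, scaled to a fixed total per library) in at least 3 libraries. Kidney RNA from overnight-fasted mice was sequenced in 12 libraries that form 4 groups of 3. FXR KO mice (Nr1h4tm1Gonz/J) received GW4064 or vehicle, and WT mice (C57BL/6) received GW4064 or vehicle. FXR, the bile acid-sensing farnesoid X receptor, is the product of Nr1h4; its agonist GW4064 is a man-made compound, given for 6 h. The labels give no treatment time for vehicle, do not name the cells in which the allele acts, and do not tell whether each library is a different animal. P-values therefore measure the spread between these samples, which may be technical.

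MHC class II molecules are pairs of an alpha and a beta chain on the surface of antigen-presenting cells, where they show peptides from engulfed proteins to CD4+ T cells. The invariant chain, encoded by Cd74, holds new pairs together until proteases of the lysosome, cathepsin S (Ctss) among them, cut it down, and H2-DM, a dimer of the H2-DMa and H2-DMb1 products, then exchanges its last fragment for a peptide. Ciita encodes the transactivator on which the genes of the chains, the invariant chain and H2-DM depend. In kidney, dendritic cells and macrophages between the tubules are the best known source, and interferon-gamma can induce class II in tubule epithelium.

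The libraries held 2.86 to 4.27 mapped gigabases, taken as the ratio of deposited coverage to FPKM. On vehicle, depth went with genotype: KO libraries were at 3.46 to 4.27 and WT libraries at 2.86 to 3.34 gigabases. KO vehicle replicate 3 was the deepest library. Under GW4064 the depths of KO and WT libraries overlapped. The part of depth in the class II differences was not tested. Pairs of libraries correlated at 0.982 to 0.988 within a group and at 0.970 to 0.987 across groups (log2 values). Nr1h4 was at 104.8 to 134 TPM in the 6 FXR KO libraries, below the 189 to 267 TPM of the 6 WT libraries. The values for the whole Nr1h4 gene do not tell intact from truncated transcripts. Slc51a, an FXR target in other tissues, was at 28.6 to 33.2 TPM in KO GW4064 libraries, 34.4 to 46.5 in KO vehicle, 427 to 514 in WT GW4064 and 36.4 to 48.1 in WT vehicle libraries.

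Of the 8 genes, 5 lie in the MHC on chromosome 17 (mm10, coordinates of the deposited tables). On the plus strand, H2-DMa covers chr17:34122832-34139101, H2-DMb1 chr17:34153191-34160229, H2-Ab1 chr17:34263227-34269418 and H2-Eb1 chr17:34305867-34316674. H2-Aa covers chr17:34282751-34287771 on the minus strand. Outside the MHC, on the plus strand, are Ciita at chr16:10480072-10527640 and Ctss at chr3:95526786-95556405. All 8 are protein-coding. In the GENCODE annotation the gene span of Ciita overlaps that of Dexi on the other strand by 25888 bases, and H2-DMa overlaps Brd2 on the other strand by 3094 bases. Brd2 averaged 78.2 TPM and Dexi 11.2 TPM over the 12 libraries. The kit keeps strand, but whether strand was used in counting is not stated in the sources used here, so reads of such pairs may have been shared.

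Class II promoters are known for a shared X box and Y box, bound by the RFX and NF-Y complexes that CIITA docks on. The 150 bases before the annotated start are shown for H2-Aa, H2-Eb1 and H2-DMb1 (RefSeq, GRCm38.p6). A beta chain and a loading gene hold both strings searched for here, and an alpha chain holds 1 of them. H2-Aa is from chr17:34287824-34287973 on the minus strand, H2-Eb1 from chr17:34305717-34305866 and H2-DMb1 from chr17:34153041-34153190, both on the plus strand. Capitals mark AACNGATG, used here as the core of the X box, and CCAAT or its reverse complement ATTGG, the core of the Y box. Other forms of the X box were not searched for.
H2-Aa: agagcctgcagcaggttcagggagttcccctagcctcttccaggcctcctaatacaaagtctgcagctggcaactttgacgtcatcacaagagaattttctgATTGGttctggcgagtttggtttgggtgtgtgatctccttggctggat
H2-Eb1: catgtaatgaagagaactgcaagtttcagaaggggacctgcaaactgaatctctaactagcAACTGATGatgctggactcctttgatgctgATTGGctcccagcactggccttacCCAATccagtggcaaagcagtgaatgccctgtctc
H2-DMb1: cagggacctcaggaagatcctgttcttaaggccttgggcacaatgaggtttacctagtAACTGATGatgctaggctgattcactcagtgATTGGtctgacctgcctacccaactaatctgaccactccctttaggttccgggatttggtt

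H2-Eb1 and H2-DMb1 held both cores in these windows, at nearly equal spacing. In H2-Eb1 the first base of the X core lay 89 bases before the start and that of the nearest Y core 59, which is 30 bases apart. In H2-DMb1 they lay 92 and 61 bases before the start, 31 apart. Both promoters also share the run AACTGATGATGCT of 13 bases, which was in 2 windows of all 32851. H2-Aa held a Y core 48 bases before its start and no AACNGATG, which does not show that it lacks an X box. Searched on both strands over RefSeq windows of 300 bases (250 before the start, 50 after), AACNGATG was in 2.32% of all windows, CCAAT in 37.4% and both in 0.880%. Of the 8 genes, 5 had a window that was used. Among them, the Ctss window held AACNGATG 207 bases before the start, and the H2-DMa windows held CCAAT at 198 bases before the start of one and neither core in the other. A match is a run of letters, not a shown site of binding.

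Within each group the 8 genes kept one order of TPM, which is already per length: Cd74, H2-Aa, H2-Ab1, H2-Eb1, Ctss, H2-DMb1, H2-DMa, Ciita, from high to low. Cd74 averaged 188 ± 21.4 TPM in KO GW4064, 233 ± 82.5 in KO vehicle, 122 ± 9.49 in WT GW4064 and 128 ± 3.15 in WT vehicle libraries (SD, n = 3 each). At the low end Ciita averaged 3.44 ± 0.134, 4.003 ± 0.981, 2.48 ± 0.247 and 2.37 ± 0.202 TPM in the same groups. Neighbours in that order overlapped between libraries for H2-Aa and H2-Ab1 in both KO groups, and for Ctss and H2-DMb1 in KO vehicle and WT vehicle libraries. Summed over the 8 genes, class II RNA was 472 to 605 TPM in KO GW4064, 514 to 849.9 in KO vehicle, 326 to 385 in WT GW4064 and 338 to 390.1 TPM in WT vehicle libraries.

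**Figure D1:**
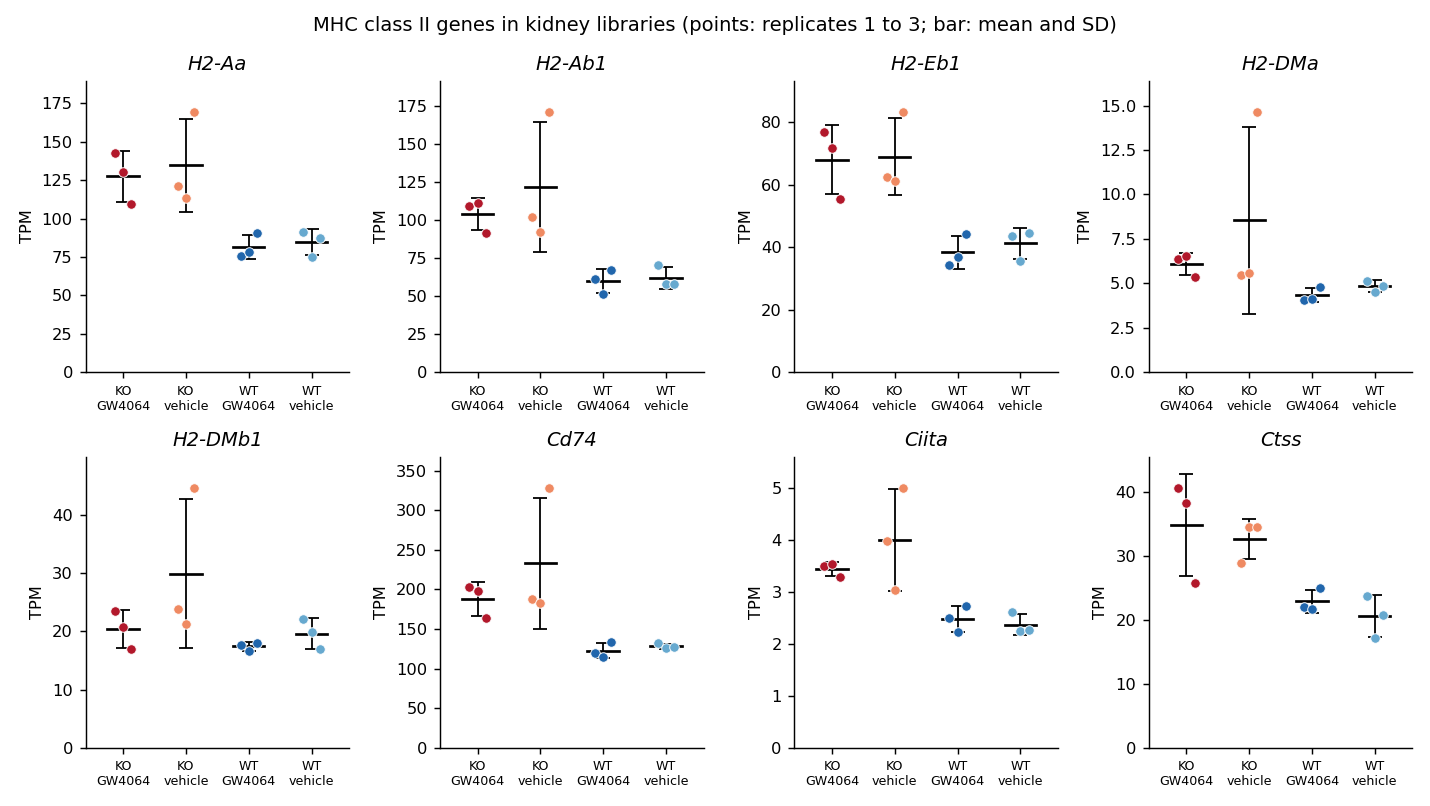
TPM of the 8 class II genes in each library (y axes from 0, one panel per gene), with FXR KO groups left of WT groups, points for replicates 1 to 3, and a bar and whiskers for the mean and SD. Every FXR KO library stands above every WT library in all panels but H2-DMb1, and KO vehicle replicate 3 is the top point in all panels but Ctss.

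The first question was how the class II genes differ between FXR KO and WT mice given vehicle. The genes were higher in FXR KO kidneys: 6 of the 8 (H2-Aa, H2-Ab1, H2-Eb1, Cd74, Ciita and Ctss) were called higher and 0 lower, at folds of 1.55 to 1.89, where called means a limma p, Benjamini-Hochberg adjusted over all 14488 genes, under 0.05. In this comparison 12.9% of all genes were called in either direction and 3.19% were called higher. The median log2 difference, KO minus WT, was 0.66 over the 8 genes and -0.09 over all genes tested. H2-DMa and H2-DMb1, the loading genes, were not called. All genes together were called higher 462 times and lower 1410 times, a split that became 846 and 533 after median-of-ratios scaling and 674 and 591 after quantile scaling. The 6 class II genes were called higher under both scalings. In bulk kidney, more cells of a type and more RNA per cell cannot be told apart.

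The classical chains kept their calls on vehicle in every alternative run, as did Cd74. H2-Aa, the alpha chain of I-A, was at 142, 130.3 and 109.8 TPM in KO GW4064, 121, 113.5 and 169 in KO vehicle, 75.7, 78.3 and 90.7 in WT GW4064, and 91.2, 75.0 and 87.5 TPM in WT vehicle libraries (replicates 1, 2 and 3). Every KO library was above every WT library. On vehicle H2-Aa was 0.65 ± 0.14 higher on the log2 scale in KO libraries (SE, limma adjusted p = 0.0151). H2-Ab1, the beta chain of I-A, was at 109, 111 and 91.6 TPM in KO GW4064, 102, 92.0 and 171 in KO vehicle, 61.2, 51.3 and 66.95 in WT GW4064, and 70.1, 57.6 and 57.8 TPM in WT vehicle libraries. Again the 6 KO libraries stood above the 6 WT libraries, and KO vehicle replicate 3 stood above the other KO libraries. The vehicle difference of H2-Ab1 was 0.92 ± 0.19 (limma adjusted p = 0.0118), a fold of 1.89. H2-Eb1, the beta chain of I-E, was at 76.8, 71.9 and 55.5 TPM in KO GW4064, 62.5, 61.2 and 83.2 in KO vehicle, 34.2, 36.8 and 44.3 in WT GW4064, and 43.4, 35.4 and 44.7 TPM in WT vehicle libraries. The groups did not overlap, and the vehicle difference was 0.73 ± 0.15 (limma adjusted p = 0.0117). H2-Ea, which carries a known deletion in C57BL/6 mice and pairs with H2-Eb1 in other strains, was listed at 0 in all 12 libraries.

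Cd74 (chr18:60803849-60812652, plus strand) moved with the chains. It was at 203, 198 and 164 TPM in KO GW4064, 188, 183 and 328 in KO vehicle, 119, 115 and 133 in WT GW4064, and 132, 126 and 127 TPM in WT vehicle libraries. The lowest KO library was above the highest WT library, and KO vehicle replicate 3 was far above the rest. The vehicle difference of Cd74 was 0.81 ± 0.18 (limma adjusted p = 0.0151). The ratio of Cd74 to H2-Ab1 was 1.81 ± 0.0486 in KO GW4064, 1.92 ± 0.0738 in KO vehicle, 2.06 ± 0.155 in WT GW4064 and 2.09 ± 0.180 in WT vehicle libraries (SD, n = 3 each). The ratio of H2-Aa to H2-Ab1 was 1.23 ± 0.0711, 1.14 ± 0.128, 1.37 ± 0.145 and 1.37 ± 0.122 in the same groups. Between genotypes, the Cd74 to H2-Ab1 ratio overlapped on vehicle and not under GW4064, and the H2-Aa to H2-Ab1 ratio overlapped under GW4064 and not on vehicle. No test was run on these ratios.

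Ctss encodes the protease that makes the last cut of the invariant chain in dendritic cells and B cells. It was at 40.6, 38.2 and 25.7 TPM in KO GW4064, 28.9, 34.5 and 34.4 in KO vehicle, 22.1, 21.6 and 24.95 in WT GW4064, and 23.7, 17.2 and 20.8 TPM in WT vehicle libraries. Every KO library was above every WT library, the closest being KO GW4064 replicate 3 and WT GW4064 replicate 3. On vehicle Ctss was 0.66 ± 0.16 higher in KO libraries (limma adjusted p = 0.0217). That call was lost without WT vehicle replicate 2 or 3 or KO vehicle replicate 2 or 3, with limma adjusted p-values up to 0.0698.

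Ciita, the transactivator, was low in every library. It was at 3.50, 3.54 and 3.29 TPM in KO GW4064, 3.97, 3.04 and 4.999 in KO vehicle, 2.49, 2.22 and 2.72 in WT GW4064, and 2.60, 2.24 and 2.27 TPM in WT vehicle libraries. The lowest KO library, at 3.04 TPM, was above the highest WT library, at 2.72 TPM. The vehicle difference was 0.63 ± 0.16 (limma adjusted p = 0.025). The call was lost without WT vehicle replicate 2 or 3 or KO vehicle replicate 1 or 3 (limma adjusted p up to 0.0784), and in a fit of only the groups compared (0.0809).

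The loading genes H2-DMa and H2-DMb1 behaved less uniformly. H2-DMa was at 6.37, 6.53 and 5.37 TPM in KO GW4064, 5.46, 5.56 and 14.6 in KO vehicle, 4.06, 4.14 and 4.80 in WT GW4064, and 5.15, 4.52 and 4.86 TPM in WT vehicle libraries. The 6 KO libraries were above the 6 WT libraries, by little apart from KO vehicle replicate 3. The vehicle difference of H2-DMa was 0.62 ± 0.28 (limma adjusted p = 0.164). H2-DMb1 was at 23.4, 20.7 and 16.9 TPM in KO GW4064, 23.8, 21.3 and 44.6 in KO vehicle, 17.6, 16.6 and 18.1 in WT GW4064, and 22.1, 19.8 and 16.9 TPM in WT vehicle libraries. It is the 1 gene of the 8 whose genotypes overlapped, and its vehicle difference was 0.53 ± 0.22 (limma adjusted p = 0.139). Its longest coding transcript is 94.6% identical to that of H2-DMb2 over the aligned bases, so reads may have been split between the pair. H2-DMb2 averaged 2.97 TPM over the 12 libraries.

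KO vehicle replicate 3 stood apart for these genes. Its TPM over the mean of the other KO vehicle libraries was 1.09 for Ctss, 1.77 for Cd74, 1.98 for H2-DMb1 and 2.66 for H2-DMa, with a median of 1.60 over the 8 genes and 1.02 over all genes with a mean of 1 TPM. H2-DMa had a higher ratio than 99.8% of those genes, and Ctss than 72.1%. Other lists were compared in that library. The median ratio was 1.66 over 18 interferon-induced genes, 17 of them above 1, and 1.30 over 20 class I presentation genes, 19 of them above 1. It was 1.22 over 9 pan-leukocyte markers, 1.07 over 14 macrophage markers and 1.00 over 10 proximal tubule markers. For 5 fat markers it was 2.28. Over 6 tested fat markers the median log2 difference from the WT vehicle mean was -0.39, -1.42 and 0.0026 in KO vehicle replicates 1, 2 and 3, so replicate 2 was the low one. Over the 18 interferon-induced genes it was -0.20, -0.35 and 0.23 in the same libraries. Replicates 1 and 2 were the lowest of all 12 libraries for that list, and WT GW4064 replicate 3 was also at 0.23. The part of these lists in the class II values was not tested.

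Without that library 4 of the 8 class II genes were still called higher on vehicle. The log2 differences were then 0.47 for H2-Aa (limma adjusted p = 0.03), 0.65 for H2-Ab1 (0.0119), 0.59 for H2-Eb1 (0.0327) and 0.53 for Cd74 (0.00608). Ctss was at 0.62 (limma adjusted p = 0.0585) and Ciita at 0.47 (0.0721), both no longer called. H2-DMa was at 0.17 and H2-DMb1 at 0.20 (limma adjusted p = 0.378 and 0.352). The other 2 KO vehicle libraries thus carried a smaller difference of the loading genes than of the chains, a contrast between genes that was not tested.

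**Figure D2:**
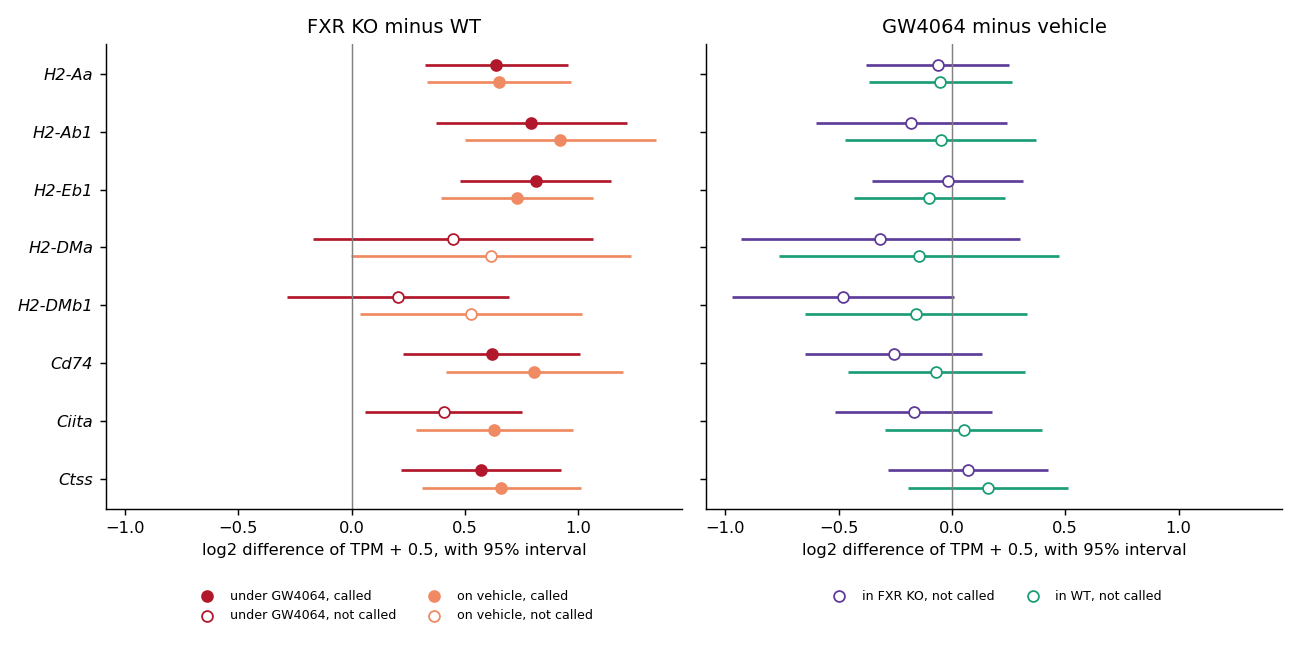
Log2 differences of the 8 class II genes with 95% intervals from limma, FXR KO minus WT on the left (under GW4064 and on vehicle) and GW4064 minus vehicle on the right (in FXR KO and in WT); filled points were called. Genotype differences run from 0.21 to 0.92. Called genes are at 0.57 to 0.92, and H2-DMa on vehicle, at 0.62, was not called. All GW4064 intervals cross 0.

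The second question was whether the genotype difference is also seen after the agonist. Under GW4064, 5 of the 8 genes (H2-Aa, H2-Ab1, H2-Eb1, Cd74 and Ctss) were called higher in FXR KO libraries and 0 lower, with a median log2 difference of 0.59 against -0.03 over all genes. In this comparison 18.5% of all genes were called in either direction and 7.08% higher. H2-Eb1 was 0.81 ± 0.15 higher (limma adjusted p = 0.00336) and H2-Aa 0.64 ± 0.14 higher (limma adjusted p = 0.01), and both calls held in every alternative run. H2-Ab1 was 0.79 ± 0.19 higher (limma adjusted p = 0.0145), a call lost without WT GW4064 replicate 2 (0.0571). Cd74 was 0.62 ± 0.18 higher (limma adjusted p = 0.033), and its call was lost without any 1 WT GW4064 library or without KO GW4064 replicate 1 or 2 (up to 0.0963), without a filter (0.0518) and without a variance trend (0.0562). Ctss was 0.57 ± 0.16 higher (limma adjusted p = 0.0295), and its call was lost without WT GW4064 replicate 1 or 2 or KO GW4064 replicate 1 or 2 (up to 0.101) and in a fit of only the groups compared (0.0584).

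Ciita, at 0.41 ± 0.16, was not called under GW4064 (limma adjusted p = 0.0993), and neither were H2-DMa at 0.45 ± 0.28 (0.312) and H2-DMb1 at 0.21 ± 0.22 (0.578). H2-DMa was called in this comparison when KO vehicle replicate 3, which is in neither group but adds to the shared spread, was left out (limma adjusted p = 0.0179). The number of class II genes called was 3 without WT GW4064 replicate 1, 2 without WT GW4064 replicate 2, 3 without KO GW4064 replicate 1 and 3 without KO GW4064 replicate 2. Each single KO GW4064 library was above each WT GW4064 library for 7 of the 8 genes, which held for 14.0% of all genes. On vehicle the same count was 7 of 8, against 7.89% of all genes.

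Across both treatments 7 of the 8 genes, all but H2-DMb1, had each of the 6 KO libraries above each of the 6 WT libraries, which 3.06% of all genes did. Called higher in both genotype comparisons were 5 of the 8 genes and 1.98% of all genes. The 2 comparisons share no library, but the fit gives them 1 estimate of the spread.

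The third question was whether 6 h of GW4064 moved the class II genes. In WT kidneys 0 of the 8 were called by limma, 0 had an unadjusted p under 0.05, and 4.80% of all genes were called. The log2 differences, GW4064 minus vehicle, ran from -0.16 for H2-DMb1 to 0.16 for Ctss, with 95% intervals that reached from -0.76 to 0.51 (limma adjusted p 0.642 to 0.927). In FXR KO kidneys 0 of the 8 were called by limma, 0 had an unadjusted p under 0.05, and 0.0138% of all genes were called. The differences there ran from -0.48 for H2-DMb1 to 0.07 for Ctss, with intervals that reached from -0.97 to 0.42 (limma adjusted p 0.472 to 0.981). Of the 11 other class II chains and processing genes, the 17 regulators, the 20 class I genes, the 18 interferon-induced genes and the 6 costimulation genes tested, 0 were called for GW4064 in FXR KO or in WT kidneys. GW4064 and vehicle libraries overlapped for all 8 genes in both genotypes. The limits given span the 8 genes, and single genes had narrower intervals, such as -0.37 to 0.26 for H2-Aa in WT kidneys. With 3 libraries per group, a difference within a gene's own interval is not excluded.

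The effect of GW4064 was also compared between genotypes by an interaction term. It was called for 0 of the 8 genes, 0 of which had an unadjusted p under 0.05, and for 3.19% of all genes. The interaction, KO minus WT, ran from -0.32 for H2-DMb1 to 0.08 for H2-Eb1 on the log2 scale (limma adjusted p 0.632 to 0.984).

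Further genes of the pathway were compared by list, beside 12.9% of all genes called in either direction on vehicle and 18.5% under GW4064. Among 14 other class II chains and processing genes, of which 11 passed the filter, 4 were called higher and 1 lower in KO libraries on vehicle, with a median log2 difference of 0.22. The 4 were lysosomal proteases, which also work in tubule cells. Cathepsin D (Ctsd) was at 676 to 720.4 TPM in KO vehicle and 599 to 608 TPM in WT vehicle libraries, a difference of 0.22 ± 0.05 (limma adjusted p = 0.0132). Legumain (Lgmn) was at 859 to 1075 TPM in KO vehicle and 738 to 746 TPM in WT vehicle libraries, a difference of 0.33 ± 0.07 (limma adjusted p = 0.0148). Ctsb, at 0.22, lost its call without WT vehicle replicate 1 or 3 or KO vehicle replicate 2 or 3 (limma adjusted p up to 0.078), and Ctsl, at 0.15, lost it without any 1 of 9 libraries (up to 0.156), all but WT vehicle replicate 2 and KO GW4064 replicates 1 and 2, and under 4 other alternatives, quantile scaling among them. Ifi30, a thiol reductase that unfolds antigens in lysosomes and is induced by interferon-gamma, went the other way. It was at 69.5 to 72.8 TPM in KO vehicle and 84.5 to 92.8 TPM in WT vehicle libraries, a difference of -0.31 ± 0.06 (limma adjusted p = 0.00795).

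Under GW4064 the counts in that list were 1 higher and 1 lower, with a median of 0.06. Ctsd was 0.19 higher (limma adjusted p = 0.0157), a call lost without WT GW4064 replicate 3 (0.0534) and in a fit of only the groups compared (0.0561). Ifi30 was at 64.9 to 69.8 TPM in KO GW4064 and 85.95 to 101 TPM in WT GW4064 libraries, a difference of -0.49 ± 0.06 (limma adjusted p = 1.9e-04). H2-DMb2, the second H2-DM beta gene, was at 0.92 ± 0.33 on vehicle (limma adjusted p = 0.0842) and -0.05 ± 0.33 under GW4064, and was 2.76-fold higher in KO vehicle replicate 3 than in the other KO vehicle libraries.

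The regulators upstream of class II were read beside the 12.9% of all genes called in either direction on vehicle and 18.5% under GW4064. Of 18 genes of class II transcription and interferon-gamma signalling, 17 passed the filter; 0 were called higher and 2 lower in KO libraries on vehicle (median -0.07), and 2 higher and 3 lower under GW4064 (median -0.03). Nfya, a subunit of the Y box factor NF-Y, was at 13.8 to 15.8 TPM in KO vehicle and 18.7 to 19.6 TPM in WT vehicle libraries, a difference of -0.39 ± 0.07 (limma adjusted p = 0.00458), and was -0.31 ± 0.07 under GW4064 (0.0077). Nfyc, another NF-Y subunit, was -0.22 ± 0.07 on vehicle (limma adjusted p = 0.0631) and -0.53 ± 0.07 under GW4064 (2.9e-04). Ifngr1, a chain of the interferon-gamma receptor, was at 52.0 to 56.1 TPM in KO GW4064 and 43.6 to 45.8 TPM in WT GW4064 libraries, a difference of 0.26 ± 0.05 (limma adjusted p = 0.00227).

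Calls of 3 more regulators were lost when any of several single libraries was left out. Irf8, a factor of dendritic cells and macrophages, was 0.52 ± 0.15 higher under GW4064 (limma adjusted p = 0.0288), a call lost without WT GW4064 replicate 1 or 3 or KO GW4064 replicate 2 (up to 0.111) and in a fit of only the groups compared. Ezh2 was -0.36 on vehicle and lost its call without any 1 of 8 libraries (limma adjusted p up to 0.142), all but WT GW4064 replicate 2, WT vehicle replicate 2, KO GW4064 replicate 1 and KO vehicle replicate 3, and under 5 other alternatives. Creb1 was -0.21 under GW4064 and lost its call without any 1 of 11 libraries (limma adjusted p up to 0.177), all but KO GW4064 replicate 3, and under 7 other alternatives. Both scalings were among these for Ezh2 and Creb1.

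Interferon-induced genes and class I genes, which share inducers with class II, were set beside the 8 genes. Over all 14488 genes tested, 1410 were called lower and 462 higher on vehicle, and 1651 lower and 1026 higher under GW4064. Of 20 interferon-induced genes 18 passed the filter, and 0 were called higher and 2 lower in KO libraries in each genotype comparison, with medians of -0.12 on vehicle and -0.08 under GW4064. Ifit3, an antiviral effector, was at 11.9 to 15.4 TPM in KO GW4064, 9.75 to 15.2 in KO vehicle, 25.2 to 35.4 in WT GW4064 and 27.8 to 30.5 TPM in WT vehicle libraries. Its log2 difference was -1.32 ± 0.17 on vehicle and -1.16 ± 0.17 under GW4064 (limma adjusted p = 8.2e-04 and 5.8e-04). Rsad2, also antiviral, was at -0.28 and -0.26 (limma adjusted p = 0.0267 and 0.0244). Its vehicle call was lost without any 1 WT vehicle library or without KO vehicle replicate 2 (up to 0.0866), under both scalings and in a fit of only the groups compared. Its GW4064 call was lost without WT GW4064 replicate 1 or 3 or KO GW4064 replicate 1 or 2 (limma adjusted p up to 0.079).

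Of 20 class I presentation genes, all of which passed, 1 was called higher and 1 lower on vehicle (median 0.05), and 0 higher and 1 lower under GW4064 (median 0.09). H2-T23, which encodes the non-classical molecule Qa-1, was at 145 to 157 TPM in KO vehicle and 118 to 131 TPM in WT vehicle libraries, a difference of 0.30 ± 0.05 (limma adjusted p = 0.00282). Calr, a chaperone of class I folding, was -0.28 ± 0.05 in each comparison (limma adjusted p = 0.00782 on vehicle and 0.00393 under GW4064). The classical H2-K1 and H2-D1, named after their values were seen, were not called, with differences of 0.19 to 0.26.

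The 5 MHC genes span 193.8 kb of chromosome 17, and 6 other genes listed between them passed the filter. Those 6 (H2-DMb2, Psmb9, Tap1, Psmb8, Tap2 and H2-Ob) gave 0 calls in either genotype comparison, with median log2 differences of 0.30 on vehicle and 0.14 under GW4064. H2-Ob reached 1 TPM in KO libraries only, so its part in these medians is not independent of the filter. The same holds for the medians of the other class II chains and processing genes, which include H2-Ob. Psmb8, an immunoproteasome subunit, was at 0.34 ± 0.23 on vehicle, and Tap1, which carries peptides to class I, at 0.26 ± 0.20 (limma adjusted p = 0.336 and 0.407). This window was chosen after the values were seen.

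**Figure D3:**
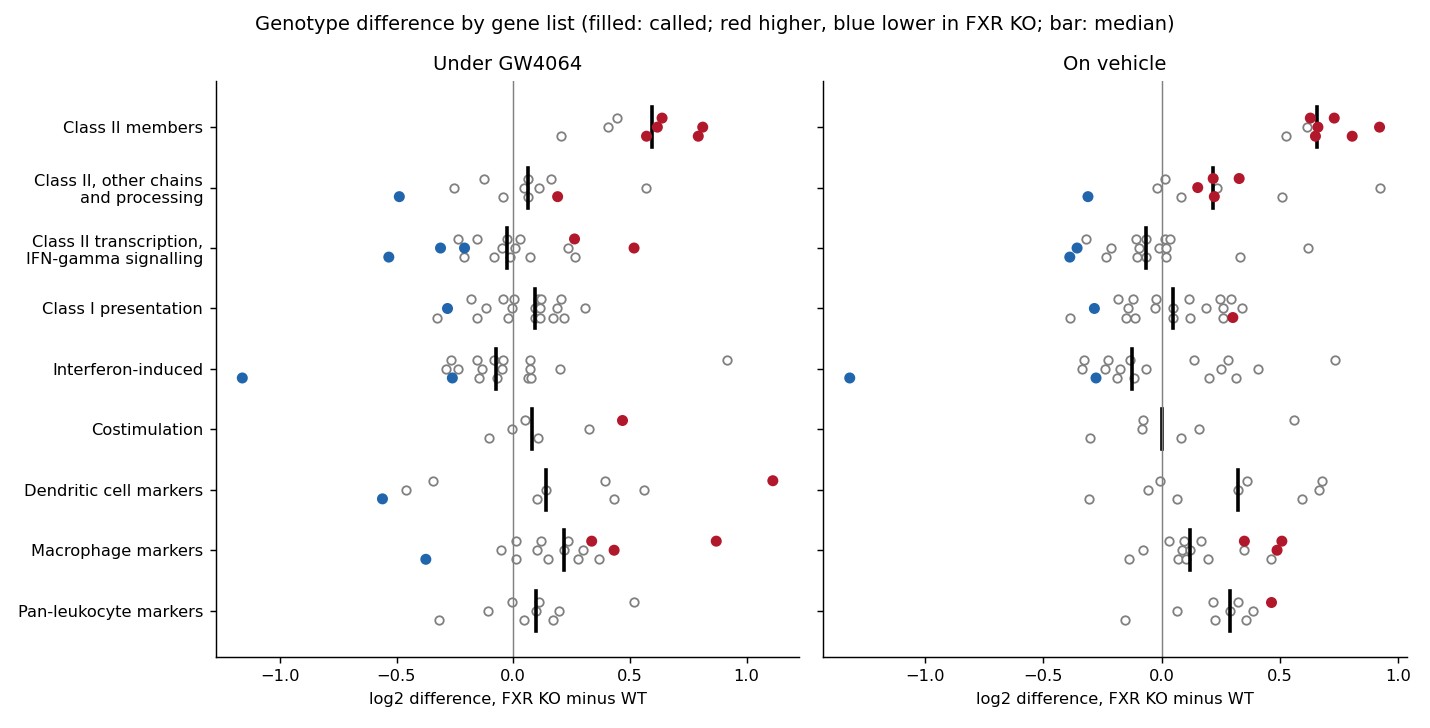
Log2 differences, FXR KO minus WT, of the genes of 9 lists under GW4064 (left) and on vehicle (right); each point is a gene, filled red where called higher and blue where called lower in FXR KO, and the black bar is the list's median. The class II median stands at 0.59 and 0.66, and the interferon-induced median at -0.08 and -0.12.

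Markers of cells that carry class II were read next to the 8 genes. Of all genes, 3.19% were called higher on vehicle and 7.08% under GW4064, and 12.9% and 18.5% in either direction. All 15 macrophage markers passed the filter, and 3 were called higher and 0 lower in KO libraries on vehicle, with a median of 0.12. The 3 were Lyz2 (0.35 ± 0.08), a lysozyme of myeloid cells, and the complement genes C1qb (0.49 ± 0.13) and C1qa (0.51 ± 0.13), with limma adjusted p-values of 0.0197, 0.0281 and 0.0314. The C1qa call was lost without any 1 of the 6 vehicle libraries (up to 0.0891). The C1qb call was lost without WT vehicle replicate 2 or 3 or KO vehicle replicate 2 or 3 (up to 0.0789), and the Lyz2 call without WT vehicle replicate 1 or 2 or KO vehicle replicate 2 or 3 (up to 0.0605).

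Under GW4064, 3 macrophage markers were called higher and 1 lower, with a median of 0.22. Cd14, a co-receptor for bacterial lipopolysaccharide, was at 7.39 to 9.01 TPM in KO GW4064 and 3.91 to 4.25 TPM in WT GW4064 libraries, a difference of 0.87 ± 0.15 (limma adjusted p = 0.00184). Lyz2 was 0.43 ± 0.08 higher (limma adjusted p = 0.00388) and Apoe 0.34 ± 0.06 higher (0.00344). Csf1r, the receptor for the main macrophage growth factor, was at 34.9 to 37.6 TPM in KO GW4064 and 46.1 to 48.8 TPM in WT GW4064 libraries, a difference of -0.37 ± 0.05 (limma adjusted p = 2.4e-04).

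The summed macrophage markers were at 560 to 601 TPM in KO GW4064, 563 to 598 in KO vehicle, 479 to 490.3 in WT GW4064 and 520 to 546 TPM in WT vehicle libraries, of which Apoe alone gave 263 to 366 TPM. None of the 15 was at 0 in all libraries. Of 10 pan-leukocyte markers 9 passed; their medians were 0.29 on vehicle and 0.10 under GW4064. Cd53 was called higher on vehicle (0.46, limma adjusted p = 0.0441), a call lost without any 1 of 10 libraries (up to 0.114), all but WT GW4064 replicate 3 and KO GW4064 replicate 3, and under 3 other alternatives. Under GW4064 0 were called by limma, the lowest p being that of Rac2 at 0.52 (adjusted 0.202). Summed, they were at 77.1 to 88.1 TPM in KO GW4064, 78.3 to 99.4 in KO vehicle, 78.2 to 86.5 in WT GW4064 and 73.8 to 82.4 TPM in WT vehicle libraries. The part of macrophage and leukocyte content in the class II difference was not tested.

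Dendritic cell markers gave few calls, and most of them were at low TPM. Of 11 markers 9 passed; 0 were called on vehicle by limma (median 0.32, lowest p that of Zbtb46 at -0.30, adjusted 0.0963), and 1 higher and 1 lower under GW4064 (median 0.14). Flt3, a growth factor receptor of dendritic cell precursors, was at 1.16 to 1.38 TPM in KO GW4064 and 0.198 to 0.404 TPM in WT GW4064 libraries, a difference of 1.11 ± 0.27 (limma adjusted p = 0.015), a call lost without WT GW4064 replicate 2 (0.0541). Flt3 reached 1 TPM in KO libraries only, with WT vehicle libraries at 0.867 TPM or less. Its call and its part in the list medians are therefore not independent of the filter. Kmo, an enzyme of tryptophan breakdown that is also made by liver and kidney cells, was at 125 to 135 TPM in KO GW4064 and 183 to 211 TPM in WT GW4064 libraries, a difference of -0.56 ± 0.06 (limma adjusted p = 8.3e-05). On vehicle the dendritic median was above those of macrophage (0.12) and pan-leukocyte markers (0.29). Under GW4064 it lay between theirs (0.22 and 0.10). The part of dendritic cell content in the class II difference was not tested.

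B cell markers were nearly absent, with 1 of 9 past the filter and sums of 2.13 to 4.97 TPM over the 12 libraries. Of 12 T and NK cell markers 4 passed, with 0 calls by limma in either genotype comparison and lowest p-values for Lck on vehicle (0.84, adjusted 0.0576) and Cd2 under GW4064 (0.86, adjusted 0.117). Of 8 neutrophil markers 2 passed, and Ly6g was at 0 in all 12 libraries. S100a9 was called higher under GW4064 (limma adjusted p = 7.1e-04), at 1.15 to 1.89 TPM in KO GW4064 libraries and listed at 0 in the 3 WT GW4064 libraries. It reached 1 TPM in KO libraries only, with WT vehicle libraries at 0.876 TPM or less. The filter thus let S100a9 in through the genotype where it is high, and its call is not independent of the filter. Of 10 costimulation genes 6 passed, with 0 called on vehicle by limma (lowest p Cd86, 0.56 ± 0.18, adjusted 0.0587) and Icam1, an adhesion molecule, called higher under GW4064 (0.47 ± 0.09, adjusted 0.00393).

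**Figure D4:**
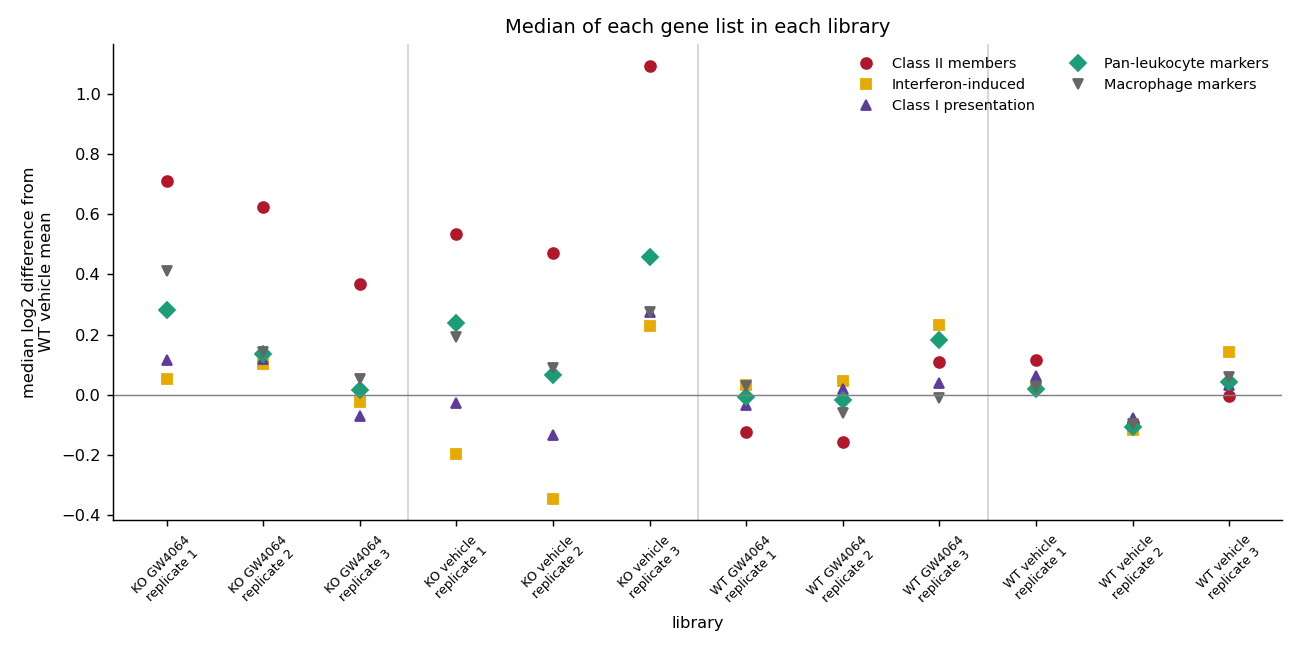
Median log2 difference of each list from the WT vehicle mean (y axis) in each of the 12 libraries (x axis), with FXR KO groups left of WT groups. The class II median is at 0.37 to 1.09 in the 6 KO libraries and at -0.16 to 0.11 in the 6 WT libraries, and KO vehicle replicate 3 is the highest library for the class II, class I and pan-leukocyte lists.

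The genes whose pattern was most like that of the 8 were ranked by Pearson correlation with the mean of their standardised log2 values over the 12 libraries, among 14049 genes. These correlations are descriptions: the libraries share genotype, and depth and tissue composition can move many genes at once. Mpeg1, which encodes a pore-forming protein of macrophages, came first at r = 0.97 (Spearman rho = 0.99), at 0.88 on deviations from the group means, and at 0.98 over the 10 libraries left without KO GW4064 replicate 1 and KO vehicle replicate 3. C4b, a complement component, followed at 0.96 and 0.83 on deviations, then Hexa, a lysosomal hexosaminidase, at 0.95 and 0.90, and Sirpa, a myeloid receptor for CD47, at 0.95 and 0.85. The classical class I gene H2-D1 came next at 0.94 and 0.90 on deviations. Atp9a, Lgmn, Etv1, Zdhhc6 and Gda completed the first 10, at 0.94, 0.93, 0.93, 0.92 and 0.92. On deviations from the group means those 5 were at 0.74, 0.86, 0.69, 0.92 and 0.69.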

How the data were processed

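Per the labels' protocols, RNA was extracted with Trizol and libraries were made with a strand-keeping total RNA kit. HISAT2, StringTie and Cufflinks and the build mm10 are named in the submitters' processing notes; the sources used here give no version, setting or annotation. The authors deposited TPM, FPKM and coverage signal for each gene. TPM values were used, FPKM as an alternative, and coverage for depth. Of 24532 identifiers 24462 matched a RefSeq symbol (GRCm38.p6).

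Values were transformed as log2(TPM + 0.5), which draws low genes toward 0. A limma 3.58.1 model (R 4.3.3) with 1 mean per group and a variance trend was fitted to the 14488 genes that reached 1 TPM in 3 or more of 12 libraries, with Benjamini-Hochberg adjustment within each comparison and calls under 0.05. Exact permutation of 3 against 3 libraries cannot go under 0.1 and was not used. The fit was tested on simulated data. Python 3.11.15 was used for tables and plots (pandas 2.3.3, numpy 2.4.6, matplotlib 3.10.9, Biopython 1.88 for alignments).

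The class II genes and the lists were chosen with earlier results of these data known. By rule, all 8 are named in each comparison, as are called genes of the other lists or, failing those, the gene of lowest p, up to 4 per direction; for lists of other kidney cells not all are named, and some genes are not reported here. Alternatives were pseudocounts, filters, scalings, FPKM, no variance trend, sample weights, only the groups compared, a block, and leaving out each library. Same-numbered libraries did not deviate together, so the numbers were not taken to pair samples.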

Additional observations from a re-analysis of the deposited data

Results flagged for a closer look

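For 6 listed genes outside the 8 the effect of GW4064 differed between genotypes by the interaction term, given as KO minus WT on the log2 scale with limma adjusted p. Slc51a was at -3.83 (1.3e-06) and Slc51b at -3.05 (1.0e-05), the check of the agonist. Kmo was at -0.55 (limma adjusted p = 0.00627), with GW4064 differences of -0.06 in FXR KO and 0.49 in WT kidneys. Csf1r was at -0.29 (limma adjusted p = 0.0395), with GW4064 differences of -0.02 in FXR KO and 0.27 in WT kidneys. The Csf1r interaction lost its call without a variance trend, with the replicate block, and without any 1 of 10 libraries (limma adjusted p up to 0.0957), all but WT vehicle replicate 3 and KO GW4064 replicate 2. Cubn, a proximal tubule marker, was at -0.30 (limma adjusted p = 0.0264), with GW4064 differences of -0.08 in FXR KO and 0.22 in WT kidneys. It lost the call with quantile scaling, without a variance trend, and without any 1 of WT GW4064 replicate 1, WT vehicle replicates 1 and 2, KO GW4064 replicate 3, and KO vehicle replicates 1 and 3 (limma adjusted p up to 0.0766). Plvap, an endothelial marker, was at 0.35 (limma adjusted p = 0.0177), with GW4064 differences of 0.12 in FXR KO and -0.23 in WT kidneys. It lost the call under median-of-ratios scaling and without WT GW4064 replicate 1 (limma adjusted p = 0.0559).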

How the results depend on the processing

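Of 907 values of the 8 class II genes under the alternatives, 857 kept their direction and their side of the threshold, 22 kept the direction but lost the call, 1 gained a call and 27 changed sign, 0 of these with a call before or after. Of the 27, 0 were in KO against WT, 26 came from leaving out a library (10 of them KO vehicle replicate 3), and 1 was the H2-Aa interaction under quantile scaling, 0.0055. With a library left out the GW4064 difference in FXR KO ran from -0.17 to 0.11 for H2-Aa, -0.35 to 0.092 for H2-Ab1, -0.11 to 0.12 for H2-Eb1, -0.54 to 0.13 for H2-DMa, -0.40 to 0.017 for Cd74 and -0.052 to 0.27 for Ctss. In WT it ran from -0.13 to 0.0061 for H2-Aa, -0.14 to 0.055 for H2-Ab1 and -0.0053 to 0.11 for Ciita. The interaction ran from -0.12 to 0.16 for H2-Aa, -0.30 to 0.14 for H2-Ab1, -0.011 to 0.22 for H2-Eb1, -0.40 to 0.27 for H2-DMa, -0.52 to 0.0047 for H2-DMb1, -0.33 to 0.086 for Cd74 and -0.21 to 0.11 for Ctss. The cause was not tested. On vehicle 4 to 6 class II genes were called when a library was left out and 5 to 6 under the other alternatives. Under GW4064 2 to 6 were called when a library was left out and 4 to 5 under the others. For GW4064 in either genotype and for the interaction the count stayed at 0 under all alternatives run. Over all genes, calls for GW4064 in FXR KO ran from 0 (no variance trend, replicate block) to 51 (without KO GW4064 replicate 2), against 2. The lowest counts were 334 for GW4064 in WT, 1726 for KO against WT under GW4064 and 216 for the interaction, each without WT GW4064 replicate 1, and 926 for KO against WT on vehicle, without WT vehicle replicate 3; the highest were 938, 2808, 535 and 1903. With the replicate block 6 class II genes were called on vehicle, 5 under GW4064 and 0 in the other comparisons. Deviations of libraries with the same number correlated at -0.075 to 0.083 (18 pairs), against -0.105 to 0.126 for different numbers (36 pairs). No pairing was seen, but these correlations cannot exclude a shared factor that moved few genes. Values at 2 to 6 TPM (Ciita, H2-DMa) rest on few reads, and read counts were not used here.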

Other observations

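Markers of other kidney cells were counted in the same fits, in which 12.9% of all genes were called on vehicle and 18.5% under GW4064. Most of those were lower in FXR KO libraries, 1410 of 1872 on vehicle and 1651 of 2677 under GW4064. Of 10 endothelial markers 0 were called higher and 5 lower in FXR KO libraries on vehicle, and 2 higher and 2 lower under GW4064. Emcn, a surface sialomucin of kidney vessels, was at -0.47 ± 0.09 on vehicle (limma adjusted p = 0.00783), and Ehd3, of glomerular endothelium, at -0.40 ± 0.08 under GW4064 (0.00496). Of 10 distal nephron and podocyte markers 4 were lower on vehicle and 3 under GW4064, with 0 higher in both. Under each of the 2 scalings 3 of the 5 endothelial and 3 of the 4 distal and podocyte calls on vehicle were lost, those of Ehd3, Plvap, Pecam1, Nphs1, Aqp2 and Aqp3. Of 10 proximal tubule markers 0 were called on vehicle by limma, the lowest p being that of Slc27a2 at 0.17 (adjusted 0.0514), and 1 was higher and 4 were lower under GW4064, Cubn, a receptor for protein uptake, at -0.40 ± 0.04 (limma adjusted p = 9.6e-05). The call of Slc27a2, the higher gene, was lost under quantile scaling (limma adjusted p = 0.717). Slc34a1 lost its call without any 1 of 11 libraries (limma adjusted p up to 0.148) and under 6 other alternatives, both scalings among them. Lrp2 lost its call without any 1 of 4 libraries (limma adjusted p up to 0.0798). Of 10 tubule injury markers 6 passed the filter, with 0 called on vehicle by limma (lowest p Havcr1, 0.57, adjusted 0.314) and 1 higher under GW4064. Fat markers and adrenal markers gave 0 calls by limma in either genotype comparison, and the adrenal genes Cyp11b1, Cyp11b2, Th and Dbh were at 0 in all 12 libraries.

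Of 15 macrophage markers, 1 (Csf1r) was called higher and 1 (Mertk) lower with GW4064 in WT kidneys, and 0 were called in FXR KO kidneys. Mertk, a receptor for dying cells, was at 61.2 ± 1.91 TPM in WT GW4064 and 74.4 ± 4.29 TPM in WT vehicle libraries (SD, n = 3 each), a log2 difference of -0.28 ± 0.05 (limma adjusted p = 0.0115), lost without WT GW4064 replicate 2 (0.0552).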
